A study of Mus musculus with 8 samples.

Results

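The 10 genes described here encode the proteins that take fatty acids out of circulating lipoproteins and plasma and carry them into and through the cell. They were chosen by name (Lpl, Gpihbp1, Angptl4, Cd36, Fabp3, Fabp4, Fabp5, Slc27a1, Slc27a2 and Vldlr). No cut on their values was used, but earlier results of these data were known. They make up 10 of the 11234 genes in the authors' table. All 10 were listed and all 10 passed the filter on low values. Tissue was interscapular brown fat of male C57BL/6 mice aged 12 weeks, kept for 2 weeks at 29 °C (thermoneutrality) and killed at 5 PM, zeitgeber time 10. The 4 knockout libraries (replicates 4, 5, 19 and 20) carry floxed Hdac3 alleles together with Adiponectin-Cre, a recombinase expressed in adipocytes. The 4 control libraries (replicates 11, 12, 13 and 14) carry the floxed alleles without Cre, so both genotypes have floxed Hdac3. Cre is thus made only in cells in which the adiponectin promoter is active. Endothelial cells and macrophages of the depot, which make some of these transcripts, are not its target. The labels do not say that each library is a separate animal, and p-values measure the spread between libraries.

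Brown fat burns fatty acids for heat and draws much of them from triglyceride-rich lipoproteins in blood. Lipoprotein lipase, made by adipocytes, is moved by GPIHBP1 across capillary endothelium to the vessel lumen, where it releases fatty acids from triglyceride. ANGPTL4 inactivates the enzyme, and the VLDL receptor binds the lipoprotein particles themselves. CD36 and the fatty acid transport proteins of the Slc27a family take up the released fatty acids, and fatty acid binding proteins shuttle them inside the cell. Several of these genes are textbook targets of the nuclear receptor PPARγ in adipocytes. HDAC3 is the deacetylase of the NCoR and SMRT corepressor complexes, which nuclear receptors recruit.

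Values below are RPKM (read counts per length of gene model and per size of library) as the authors deposited them, here divided by a TMM factor. TMM, the trimmed mean of log ratios, makes the bulk of genes equal between libraries. Values in a series follow the order of replicates 4, 5, 19 and 20 for knockout and 11, 12, 13 and 14 for control. Fold changes are knockout minus control on the log2(RPKM + 1) scale, with the standard error (SE), from limma across the 8764 genes averaging 1 RPKM or more, and p-values are Benjamini-Hochberg adjusted over all of them. The threshold was 0.05. The values correspond to libraries of 13619308 to 17986134 reads, in which the 10 genes drew between 149 and 52921 reads each per library. The share of the total that fell on listed genes was 21.4% to 25.0% in knockout and 17.1% to 20.1% in control libraries. This difference makes scaling matter: the median log2 fold change of all genes was 0.01 with TMM. It was 0.14 when only the library total was used, and -0.11 when libraries were scaled by the sum of their listed reads, called the listed-gene sum here. Hdac3 stood at 3.29 ± 0.588 RPKM in knockout and 7.64 ± 0.511 RPKM in control libraries (SD, n = 4 each; limma, adjusted p = 4.33e-05). The two-sided exact permutation test gave p = 0.0286, which is the lowest that 4 against 4 libraries allow. Of 8 brown adipocyte markers tested, 3 fell and 2 rose, against 15.9% and 19.4% of all genes tested. The other 3 (Cox8b, Cpt1b and Prdm16) did not pass. Ucp1, the uncoupling protein of heat production, averaged 4.01 ± 2.90 RPKM in knockout and 158.9 ± 40.3 RPKM in control libraries (SD, n = 4 each), and Cox7a1 and Ppargc1a fell by 1.11 and 0.69 on the log2 scale (limma, adjusted p = 4.53e-05 and adjusted p = 0.000524). Elovl3, a fatty acid elongase, had 2.55 to 11.03 RPKM in knockout libraries and was at 0 in 3 control libraries and 0.0347 RPKM in control replicate 14 (limma, adjusted p = 0.000527). Cidea, a lipid droplet protein, rose by 0.27 (limma, adjusted p = 0.041), a call lost without knockout replicates 5 or 19 or any 1 control library (adjusted p = 0.0558 to adjusted p = 0.121), with the CPM filter (adjusted p = 0.0533) and with the listed-gene sum (adjusted p = 0.360). In bulk tissue, fewer cells of a type and less RNA per cell cannot be told apart.

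Of the 10 genes, 6 were higher in the knockout: Lpl, Fabp4, Fabp5, Slc27a1, Slc27a2 and Vldlr. Over all genes tested, 19.4% were higher and 15.9% were lower. No member was lower by limma, although Gpihbp1 had an unadjusted p of 0.0308. Limma voom on recovered reads called the same 6 higher and Gpihbp1 lower, where 20.2% of all genes were higher and 16.6% lower. The authors' deposited table, at an FDR below 0.05, also has 6 higher and 1 lower, against 17% and 16.6% of its genes. Scaled by library total, 6 were higher and 0 lower (31.9% and 7.17% of all genes), and by the listed-gene sum 5 and 1 (12.4% and 30.2%). A log2 fold change of at least 1 was passed by 3 (Lpl, Fabp4 and Fabp5), against 2.03% of all genes. Gpihbp1, Angptl4, Cd36 and Fabp3 did not pass. The median log2 fold change of the 10 was 0.52, against 0.01 for all genes tested. In 5 of the 10 genes every knockout library lay above every control library, as in 18.8% of all genes tested. In 0 of the 10 did every knockout library lie below, as in 16% of all genes. These counts hold for TMM-scaled values. As a share of the reads on listed genes, Slc27a2 overlapped (knockout from 0.0402%, control up to 0.0409%). By that share Gpihbp1 was lower in every knockout library (up to 0.0118%, control from 0.0124%).

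**Figure D1:**
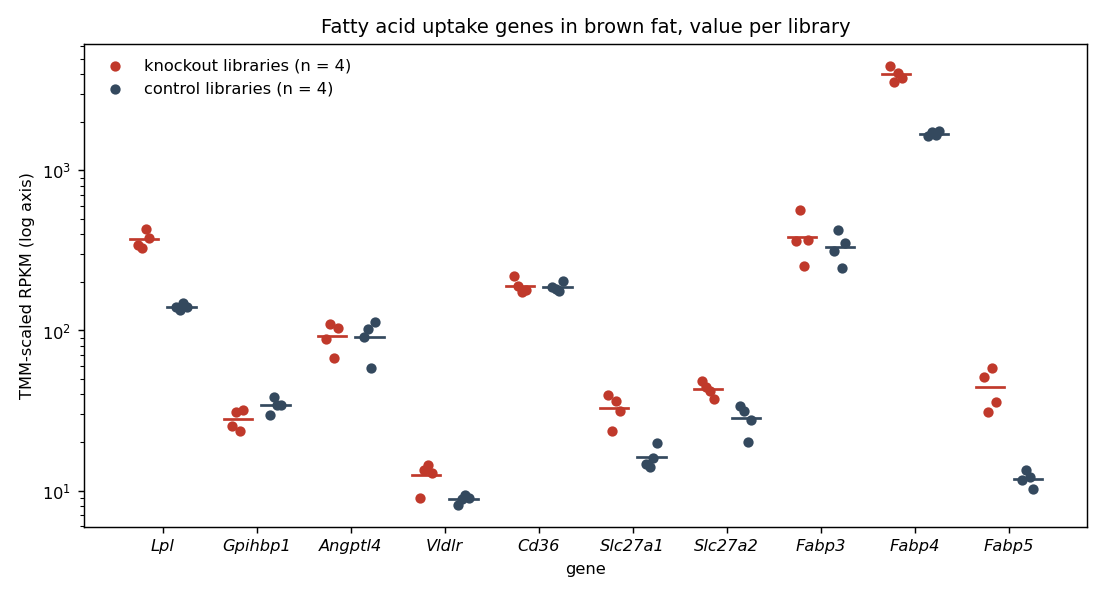
TMM-scaled RPKM of each gene (log axis) in 4 knockout libraries (red, left) and 4 control libraries (dark, right), with the mean as a bar. Lpl, Slc27a1, Slc27a2, Fabp4 and Fabp5 show no overlap of genotypes, Vldlr overlaps in 1 knockout library, and Angptl4, Cd36 and Fabp3 share their ranges.

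Lpl encodes lipoprotein lipase, the enzyme that hydrolyses triglyceride in lipoproteins. It had 343.5, 325.7, 432.6 and 379.8 RPKM in knockout and 139.4, 134.2, 148.1 and 140.3 RPKM in control libraries. Every knockout library was over 2 times any control library, with replicate 19 the highest and replicate 5 the lowest of the knockout. The mean was 2.64-fold higher (log2 fold change 1.38, SE 0.10; limma, adjusted p = 6.87e-06). Under 15 other settings the log2 fold change stayed between 1.22 and 1.57 and passed in all 15.

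Gpihbp1 encodes the endothelial protein that anchors the lipase to capillary walls, and it went the other way in its mean. Its values were 25.4, 30.9, 23.4 and 32.0 RPKM in knockout and 29.7, 38.6, 34.3 and 34.0 RPKM in control libraries. Knockout replicates 4 and 19 lay below all controls, while replicates 5 and 20 lay above control replicate 11, so the genotypes overlapped. The log2 fold change of -0.29 (SE 0.11) did not pass (limma, adjusted p = 0.0765). It passed without knockout replicate 20 (-0.35, limma, adjusted p = 0.0467), without control replicate 11 (-0.36, limma, adjusted p = 0.0486), with limma voom (-0.30, adjusted p = 0.0482) and with the listed-gene sum (-0.44, limma, adjusted p = 0.0141). With the library total alone it was -0.11 (limma, adjusted p = 0.487). For Gpihbp1 the authors' deposited table has a log2 fold change of -0.31 and an FDR of 0.036.

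Endothelial markers gave a frame for that gene. Of 16 tested, 3 fell, against 15.9% of all genes tested, and 13 did not pass. The median log2 fold change of the 16 was -0.11. With the listed-gene sum 6 fell and 0 rose (median -0.24), against 30.2% and 12.4% of all genes. By library total 1 fell and 1 rose (median 0.03), against 7.17% and 31.9%. The summed level of the 18 listed was 104.1 to 129.6 RPKM in knockout and 117.4 to 144.3 RPKM in control libraries, and none of the 18 was at 0 in any library. Those that fell were Cldn5 (-0.52, limma, adjusted p = 0.00817), Sox18 (-0.50, limma, adjusted p = 0.0108) and Cdh5 (-0.30, limma, adjusted p = 0.0453). The call of Cdh5 was lost without any 1 library other than control replicate 14 (limma, adjusted p = 0.0509 to adjusted p = 0.103), with no filter (adjusted p = 0.0536) and with the library total alone (adjusted p = 0.369). Cldn5 did not pass with the library total alone (limma, adjusted p = 0.0537). The ratio of Gpihbp1 to Pecam1, the endothelial adhesion molecule, was 1.97 ± 0.103 in knockout and 2.16 ± 0.35 in control libraries (SD, n = 4 each), and the ratio to Cdh5, vascular endothelial cadherin, 1.62 ± 0.212 in knockout and 1.61 ± 0.326 in control libraries. Both ratios overlapped between genotypes. Pecam1 and Cdh5 had log2 fold changes of -0.17 and -0.30, on the same side as the -0.29 of Gpihbp1. A ratio to Cdh5 that hardly differed follows from those values. The 16 markers ran from -0.52 to 0.20, and no ratio to another of them was taken. The part of endothelial RNA in the Gpihbp1 values was not tested.

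Angptl4, the secreted inhibitor of the lipase, did not separate the genotypes. It had 88.8, 109.5, 67.6 and 104.3 RPKM in knockout and 91.3, 102.0, 58.4 and 113.7 RPKM in control libraries. Knockout replicate 19 and control replicate 13 were the lowest of their genotypes. The log2 fold change was 0.04 with a 95% interval of -0.43 to 0.50 (limma, adjusted p = 0.908), an interval that still holds a rise or fall of about 0.4 on the log2 scale. Its sign turned with the listed-gene sum (-0.12), without knockout replicate 5 (-0.05), without knockout replicate 20 (-0.03) and without control replicate 13 (-0.18). It passed in none of these.

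**Figure D2:**
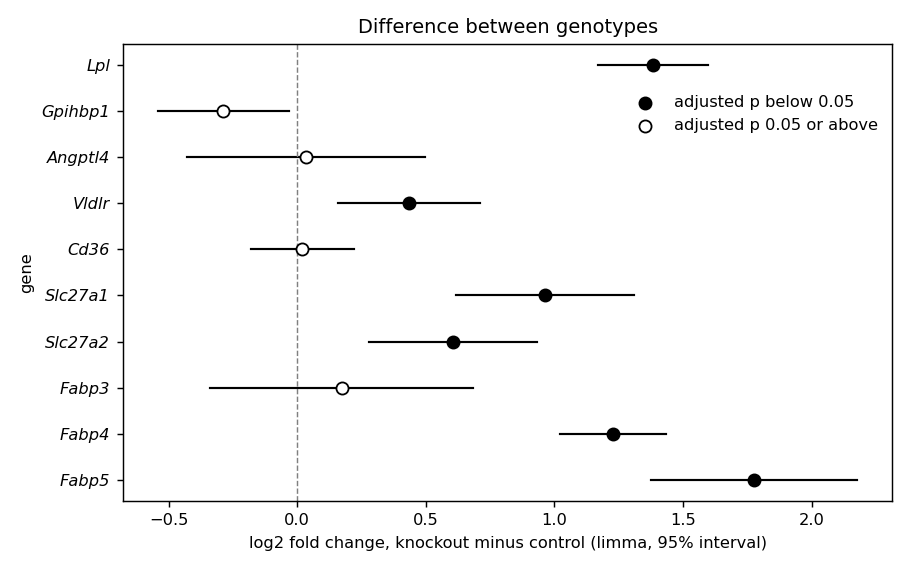
Log2 fold change of each gene, knockout minus control, with its 95% interval from limma; filled points passed an adjusted p of 0.05. Fabp5 (1.78), Lpl (1.38) and Fabp4 (1.23) lie above 1, and the intervals of Angptl4, Cd36 and Fabp3 cross 0.

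Ratios of 2 genes within a library do not depend on scaling, since the library total divides out. Lpl over Gpihbp1 was 13.5, 10.5, 18.5 and 11.9 in knockout and 4.70, 3.48, 4.32 and 4.12 in control libraries. The lowest knockout ratio was above 2 times the highest control ratio, and the mean ratio was 3.28-fold higher. Lpl over Angptl4 was 3.87, 2.97, 6.40 and 3.64 in knockout and 1.53, 1.32, 2.53 and 1.23 in control libraries. These also did not overlap, with a 2.55-fold higher mean, although knockout replicate 5, at 2.97, came near control replicate 13, at 2.53. These ratios of transcripts say nothing of the amount or activity of the proteins.

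Vldlr encodes the VLDL receptor, which binds triglyceride-rich particles. It had 8.96, 13.5, 14.4 and 12.9 RPKM in knockout and 8.14, 8.81, 9.42 and 8.96 RPKM in control libraries. Knockout replicate 4 lay within the control range, while the other 3 knockout libraries lay above it. The log2 fold change was 0.43 (SE 0.12; limma, adjusted p = 0.0212). This call was the least firm of the 6. It was lost with the listed-gene sum (0.29, limma, adjusted p = 0.0879), without knockout replicate 5 (0.39, adjusted p = 0.0561), 19 (0.36, adjusted p = 0.0562) or 20 (0.41, adjusted p = 0.0523), and without control replicate 11 (0.39, adjusted p = 0.0612) or 12 (0.42, adjusted p = 0.0504). Without knockout replicate 4 it was 0.57 (limma, adjusted p = 0.000534). Lpl over Vldlr was 30.5 ± 5.87 in knockout and 15.9 ± 0.819 in control libraries (SD, n = 4 each), without overlap, so Lpl was higher relative to Vldlr in every knockout library.

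Cd36 is the scavenger receptor that takes up long-chain fatty acids at the plasma membrane. It had 219.5, 188.6, 173.7 and 179.4 RPKM in knockout and 186.8, 182.0, 177.1 and 202.4 RPKM in control libraries. Apart from knockout replicate 4, all knockout values fell within the control range or just below it. The log2 fold change was 0.02, with a 95% interval of -0.18 to 0.22 (limma, adjusted p = 0.884). It was -0.14 with the listed-gene sum, -0.05 without knockout replicate 4, -0.0018 without control replicate 12 and -0.02 without control replicate 13, and passed in none. With the library total alone it was 0.20 (limma, adjusted p = 0.101). Lpl over Cd36 was 1.56, 1.73, 2.49 and 2.12 in knockout and 0.746, 0.737, 0.836 and 0.693 in control libraries: the Lpl value was the larger in every knockout library and the Cd36 value in every control library.

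The 2 members of the Slc27a family both rose. Slc27a1, fatty acid transport protein 1, which moves to the plasma membrane on insulin in adipocytes, had 39.3, 23.5, 36.2 and 31.6 RPKM in knockout and 14.6, 13.96, 16.0 and 19.8 RPKM in control libraries. Knockout replicate 5 was the lowest of its genotype and control replicate 14 the highest of its own, and they did not meet. The mean was 2.03-fold higher (log2 fold change 0.96, SE 0.16; limma, adjusted p = 0.00101). Slc27a2, a very-long-chain acyl-CoA synthetase of the same family, had 48.6, 44.1, 41.8 and 37.6 RPKM in knockout and 34.0, 31.4, 20.2 and 27.6 RPKM in control libraries. All knockout libraries were above all controls, with control replicate 13 the lowest of the 8. The mean was 1.52-fold higher (log2 fold change 0.61, SE 0.15; limma, adjusted p = 0.00941), and it passed in all 15 other settings (0.45 to 0.78). Slc27a1 over Cd36 was 0.172 ± 0.0348 in knockout and 0.0858 ± 0.0101 in control libraries (SD, n = 4 each), without overlap.

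Promoter sequence was available for 5 of the 10 genes (Slc27a1, Slc27a2, Vldlr, Cd36 and Fabp3; 8 promoters in all) from RefSeq on build GRCm38.p6, each covering 250 bases before to 50 after a start. Both strands were searched for AGGTCA, the hexamer read by many nuclear receptors, for DR1 (that hexamer repeated in the same direction with 1 base between, the element of PPAR and RXR), for the CCAAT box, and for the cyclic AMP element TGACGTCA. The other motifs were the TATA box, spelled TATAAA, the GC box, spelled GGGCGG, and the E-box, spelled CACGTG. DR1 was found in 0 of the 8 and in 0.0396% of 32851 promoters of the same length. The hexamer was found in 2 of the 8, against 16.3% of all. Those are the promoters of Slc27a2, which rose, and Cd36, which did not pass, shown here with the motifs in capitals (TGACCT is the hexamer on the other strand, and CCGCCC the GC box likewise). The Slc27a2 promoter lies at chr2:126552774-126553073 on the plus strand and the Cd36 promoter at chr5:17835847-17836146 on the minus strand. Both are written along the direction of transcription.
Slc27a2: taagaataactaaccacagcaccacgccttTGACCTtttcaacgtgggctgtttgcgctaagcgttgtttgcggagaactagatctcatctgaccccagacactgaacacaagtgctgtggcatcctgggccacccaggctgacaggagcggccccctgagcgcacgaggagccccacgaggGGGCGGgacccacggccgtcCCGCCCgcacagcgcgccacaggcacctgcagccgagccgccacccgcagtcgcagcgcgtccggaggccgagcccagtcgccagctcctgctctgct
Cd36: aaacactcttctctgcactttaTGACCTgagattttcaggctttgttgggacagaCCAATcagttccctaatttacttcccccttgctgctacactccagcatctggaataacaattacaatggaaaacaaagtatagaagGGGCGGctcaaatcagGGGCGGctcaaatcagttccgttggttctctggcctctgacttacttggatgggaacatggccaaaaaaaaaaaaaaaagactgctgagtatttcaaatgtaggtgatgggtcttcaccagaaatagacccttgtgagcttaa
The hexamer starts 220 bases before the start in Slc27a2 and 228 bases before it in Cd36. Each has 2 GC boxes, a motif in 35.7% of all promoters, and Cd36 also has a CCAAT box, present in 37.4%. Of the other promoters, Slc27a1 has the only E-box (7.15% of all), and the single Fabp3 promoter and 1 of the 2 Vldlr promoters hold none of the motifs. TATAAA (13.6% of all) and TGACGTCA (1.79% of all) were in none of the 8. A match is a string of letters in this window and not evidence of binding.

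The fatty acid binding proteins differed among themselves. Fabp4, the adipocyte form and the most abundant member, had 4497, 3579.6, 4058 and 3807 RPKM in knockout and 1632, 1743, 1662 and 1753 RPKM in control libraries. The highest knockout library was 1.26 times the lowest, and the highest control library 1.07 times the lowest, with no overlap. The mean was 2.35-fold higher (log2 fold change 1.23, SE 0.09; limma, adjusted p = 1e-05). The gene alone took 1.17% ± 0.0988 of the reads on listed genes in knockout and 0.559% ± 0.0167 in control libraries (SD, n = 4 each).

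Fabp5, the epidermal form, which adipocytes and macrophages also make, changed by the largest factor of the 10. It had 51.4, 31.1, 58.7 and 35.9 RPKM in knockout and 11.6, 13.4, 12.2 and 10.2 RPKM in control libraries. Knockout replicates 4 and 19 were well above replicates 5 and 20, and even the lowest knockout value was over 2 times the highest control value. The mean was 3.74-fold higher (log2 fold change 1.78, SE 0.18; limma, adjusted p = 6.03e-05). Fabp5 has near-identical pseudogene copies, so its reads may be split or shared in ways the sources used here do not give. Fabp4 over Fabp5 was 87.4, 115.3, 69.2 and 106.0 in knockout and 140.7, 129.9, 136.3 and 172.0 in control libraries: it was lower in every knockout library, so Fabp5 rose by the larger factor.

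Fabp3, the heart and muscle form, which is also abundant in brown fat, was the most variable member in knockout libraries. It had 360.8, 562.1, 251.3 and 365.9 RPKM in knockout and 313.9, 425.0, 246.6 and 350.9 RPKM in control libraries. Knockout replicate 5 was the highest and knockout replicate 19 stood beside the lowest control, replicate 13. The log2 fold change was 0.17 with a 95% interval of -0.34 to 0.68 (limma, adjusted p = 0.596). It was -0.03 without knockout replicate 5 and 0.36 without knockout replicate 19, and passed in none of 15 settings. Fabp3 over Fabp4 was 0.0988 ± 0.0412 in knockout and 0.196 ± 0.0391 in control libraries (SD, n = 4 each), and knockout replicate 5 overlapped the controls. Myl1, the 1 skeletal muscle marker listed of 11 looked for, stood at 7.11 to 10.7 in knockout and 8.998 to 17.6 in control libraries, in RPKM (limma, adjusted p = 0.235).

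Macrophages express Fabp4, Fabp5, Lpl, Cd36 and Vldlr, and their markers moved with genotype. Of 14 macrophage markers tested, 13 rose, against 19.4% of all genes tested, with a median log2 fold change of 0.69. Their summed level over 15 listed genes was 103.5 to 122.3 RPKM in knockout and 50.1 to 66.5 RPKM in control libraries, and none was at 0 in any library. Emr1, the F4/80 antigen, averaged 2.29 ± 0.356 RPKM in knockout and 1.26 ± 0.179 RPKM in control libraries (SD, n = 4 each). The part of macrophage RNA in the rises of Lpl, Fabp4, Fabp5 and Vldlr was not tested.

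Adipocyte markers also moved with genotype: of 8 tested, 5 rose and 0 fell, against 19.4% and 15.9% of all genes tested. The other 3 (Lep, Pnpla2 and Cebpa) did not pass, and the median log2 fold change of the 8 was 0.58. The rises were 1.37 for Retn, the hormone resistin, 1.15 for Cfd, the protease adipsin, 0.80 for Plin1, the lipid droplet protein perilipin 1, 0.48 for Adipoq, the hormone adiponectin, and 0.39 for Lipe, hormone-sensitive lipase. Those of Retn and Cfd were near the 1.38 of Lpl and the 1.23 of Fabp4. Their part in the rises of the uptake genes was not tested. Ratios to Adipoq, 1 of these 5 markers, were taken for Fabp4, Lpl and Cd36 only. Adipoq averaged 317.8 ± 31.1 RPKM in knockout and 227.1 ± 18.8 RPKM in control libraries (SD, n = 4 each; log2 fold change 0.48; limma, adjusted p = 0.0031). Fabp4 over Adipoq was 12.6, 12.5, 12.3 and 12.7 in knockout and 7.54, 7.70, 7.85 and 6.91 in control libraries. The knockout ratios lay within 12.3 and 12.7, all above the control ratios. Lpl over Adipoq was 1.17 ± 0.156 in knockout and 0.622 ± 0.0636 in control libraries and also did not overlap (SD, n = 4 each). Cd36 over Adipoq was 0.6 ± 0.055 in knockout and 0.825 ± 0.0304 in control libraries, lower in every knockout library.

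**Figure D3:**
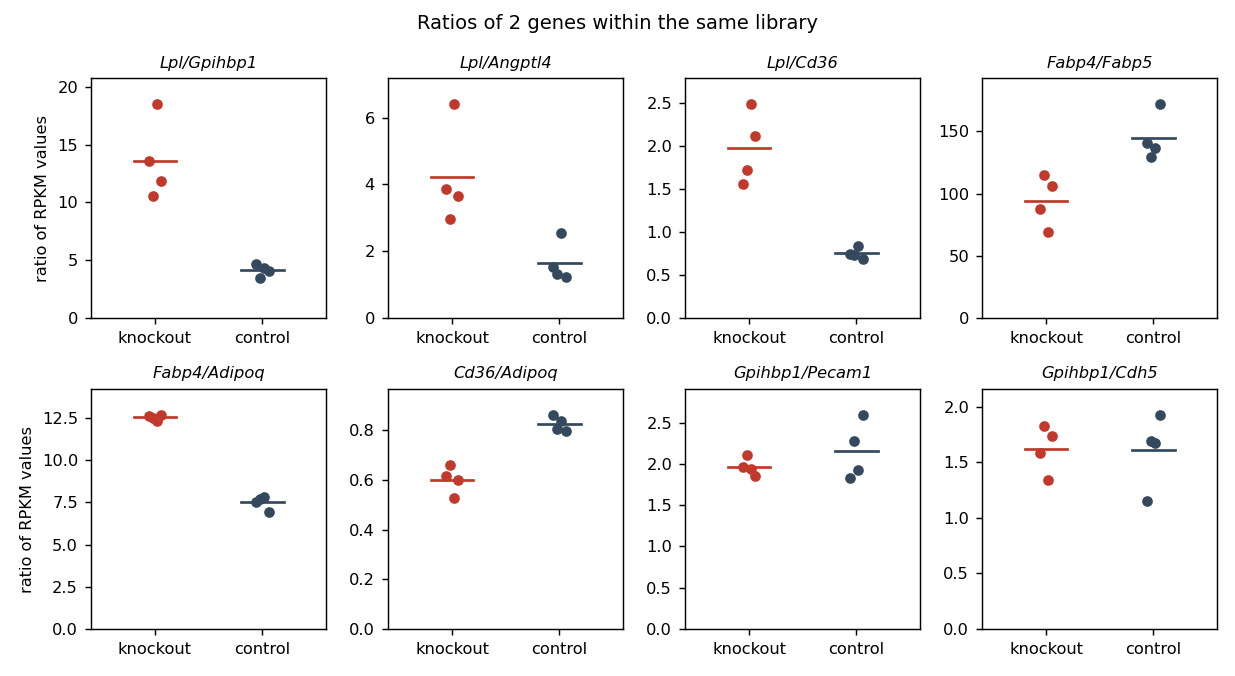
Ratios of the RPKM values of 2 genes within each library, from 0, for 4 knockout (red) and 4 control libraries (dark) with the mean as a bar. Ratios of Lpl to Gpihbp1, Angptl4 and Cd36 and of Fabp4 to Adipoq are higher in all knockout libraries, Fabp4/Fabp5 and Cd36/Adipoq are lower in all, and Gpihbp1 over Pecam1 or Cdh5 overlaps.

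RPKM is per length, so members can be ordered by level. In knockout libraries the order of means was Fabp4, Fabp3, Lpl, Cd36, Angptl4, Fabp5, Slc27a2, Slc27a1, Gpihbp1 and Vldlr. Fabp3 and Lpl overlapped there, as did Fabp5 and Slc27a2, Slc27a2 and Slc27a1, and Slc27a1 and Gpihbp1. In control libraries it was Fabp4, Fabp3, Cd36, Lpl, Angptl4, Gpihbp1, Slc27a2, Slc27a1, Fabp5 and Vldlr, where only Gpihbp1 and Slc27a2 overlapped among neighbours. Fabp5 stood at rank 6 of the 10 in knockout and rank 9 in control libraries, Gpihbp1 at rank 9 in knockout and rank 6 in control, and Lpl and Cd36 changed places. Together the 10 genes held 2.47% to 2.68% of the reads on listed genes in knockout and 1.45% to 1.61% in control libraries.

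The spread within a genotype also differed by gene. The coefficient of variation over the 4 knockout libraries was 33.6% for Fabp3, 29.3% for Fabp5, 21.0% for Slc27a1 and 20.4% for Angptl4, and 9.86% for Fabp4. Over the 4 control libraries it was 26.03% for Angptl4, 22.3% for Fabp3 and 21.2% for Slc27a2, against 3.52% for Fabp4 and 4.07% for Lpl. Fabp3 and Angptl4 were both highest in replicate 5 and lowest in replicate 19 of the knockout, and both lowest in replicate 13 of the control. In knockout replicate 19, Lpl, Fabp5 and Vldlr were at their highest and Gpihbp1, Angptl4, Cd36 and Fabp3 at their lowest. For Cd36 this depended on scaling. Before division by the TMM factor it had 194.1 RPKM in knockout replicate 19, against 189.6 in replicate 5 and 193.3 in replicate 20.

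By level over the 8 libraries, the 5 genes whose pattern was closest to Lpl were Sfxn1, a mitochondrial serine carrier, Msrb1, a methionine sulfoxide reductase, Elovl5, a fatty acid elongase, Ddt, D-dopachrome tautomerase, and Ephx2, soluble epoxide hydrolase. Likeness was the root mean square difference of log2(RPKM + 1) after each gene was centred on its own mean, among 1409 genes averaging 10 RPKM or more. It was 0.08 for Sfxn1, which had 24.8, 21.7, 27.1 and 23.4 RPKM in knockout and 7.94, 8.17, 9.06 and 9.33 RPKM in control libraries. The other 4 lay between 0.11 and 0.13. Fabp4 came at rank 23, Slc27a1 at rank 92, Fabp5 at rank 95, Slc27a2 at rank 279 and Vldlr at rank 304. Values were centred but not scaled, so likeness depends largely on the size of the genotype difference. The 5 closest had log2 fold changes of 1.24 to 1.49, against 1.38 for Lpl. Their closeness does not show a shared pattern within a genotype.

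Genes around the lipase were compared next, from lists of related genes. Of 13 tested for its folding, activation and inhibition, 5 rose and 3 fell, against 19.4% and 15.9% of all genes tested. The median log2 fold change of the 13 was 0.17. Apoe, the apolipoprotein ligand of lipoprotein receptors, averaged 852.0 ± 74.4 RPKM in knockout and 320.9 ± 35.7 RPKM in control libraries (SD, n = 4 each; log2 fold change 1.41; limma, adjusted p = 9.88e-06). Sdc4, a heparan sulfate proteoglycan, averaged 14.5 ± 1.28 RPKM in knockout and 4.03 ± 0.594 RPKM in control libraries (1.63; limma, adjusted p = 2.48e-06). The next 2 rises were Pcsk6, a proprotein convertase, by 0.84, and Sort1, the sorting receptor sortilin, by 0.47. Macrophages are a known source of Apoe. Both macrophage and adipocyte markers rose in these libraries, as given above. The part of the RNA of either cell type in the Apoe values was not tested. Pcsk7, another convertase, rose by 0.21 (limma, adjusted p = 0.0393), a call lost without knockout replicates 4, 5 or 19 or control replicates 11, 12 or 14 (adjusted p = 0.0607 to adjusted p = 0.104) and with the listed-gene sum (adjusted p = 0.272).

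Among the falls were both folding factors of the lipase that passed. Lmf1, lipase maturation factor 1, averaged 4.13 ± 0.509 RPKM in knockout and 5.35 ± 0.39 RPKM in control libraries (SD, n = 4 each; log2 fold change -0.31; limma, adjusted p = 0.0144). Sel1l, its partner in the endoplasmic reticulum, averaged 4.05 ± 0.116 RPKM in knockout and 5.02 ± 0.163 RPKM in control libraries (-0.25; limma, adjusted p = 0.00576). Neither passed with the library total alone (log2 fold changes of -0.16 and -0.10, limma, adjusted p = 0.191 and adjusted p = 0.318). Hspg2, the proteoglycan perlecan, fell by 0.35 on the log2 scale (limma, adjusted p = 0.0348). Its call was lost without knockout replicates 5, 19 or 20 or control replicates 11 or 13 (adjusted p = 0.0667 to adjusted p = 0.0809) and with the library total alone (adjusted p = 0.238). Scaled by library total this list had 6 rises and 0 falls (31.9% and 7.17% of all genes). The listed-gene sum gave 4 and 4 (12.4% and 30.2%).

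A further 13 genes were other lipoprotein receptors, their partners and the lysosomal proteins Scarb2 and Lipa. Of these, 3 rose and 1 fell (median 0.06), against 19.4% and 15.9% of all genes tested. Scarb2, a lysosomal membrane protein, rose by 0.58 (limma, adjusted p = 0.000646), Lipa, lysosomal acid lipase, by 0.35 (adjusted p = 0.0175) and Lrp1, a large endocytic receptor of remnant particles, by 0.30 (adjusted p = 0.0208). Lipa did not pass without control replicate 11 (adjusted p = 0.0555), nor Lrp1 without knockout replicate 4 or control replicates 12 or 14 (adjusted p = 0.0518 to adjusted p = 0.0677). Neither passed with the listed-gene sum (adjusted p = 0.109 and adjusted p = 0.187). Lrpap1, the chaperone of these receptors, fell by 0.32 on the log2 scale (adjusted p = 0.0413). That call was lost without knockout replicates 5, 19 or 20 or control replicates 11, 12 or 14 (adjusted p = 0.0711 to adjusted p = 0.105) and with the library total alone (adjusted p = 0.262).

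Of 6 other fatty acid transport and binding genes tested, 1 rose and 2 fell (median -0.07), against 19.4% and 15.9% of all genes. Dbi, the acyl-CoA binding protein, averaged 367.7 ± 30.2 RPKM in knockout and 170.7 ± 18.2 RPKM in control libraries (SD, n = 4 each; log2 fold change 1.11; limma, adjusted p = 2.3e-05). Got2, which is also known as the plasma membrane fatty acid binding protein, fell by 0.41 on the log2 scale (limma, adjusted p = 0.0159) and did not pass with the library total alone (adjusted p = 0.0796). Acbd3 fell by 0.17 on the same scale (adjusted p = 0.0477). Its call was lost without knockout replicates 4, 5 or 20 or control replicates 11, 12 or 14 (adjusted p = 0.0699 to adjusted p = 0.113), with the CPM filter (adjusted p = 0.0619), with limma voom (adjusted p = 0.0511) and with the library total alone (adjusted p = 0.685). Slc27a4 stood at 1.96 to 2.50 in knockout and 1.75 to 2.13 in control libraries, in RPKM (adjusted p = 0.197), and passed only when scaled by library total (0.26, limma, adjusted p = 0.0298).

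Of 20 genes of Cd36 traffic and caveolae, 3 rose and 6 fell (median 0.06), against 19.4% and 15.9% of all genes tested. Mfge8, a secreted integrin ligand that acts on fatty acid uptake through Cd36 in mouse, averaged 11.1 ± 1.33 RPKM in knockout and 19.8 ± 1.75 RPKM in control libraries (SD, n = 4 each; log2 fold change -0.79; limma, adjusted p = 0.000182). Ehd3, an endocytic ATPase, fell by 0.43 on the log2 scale (limma, adjusted p = 0.0015), and was below 1 RPKM on average in knockout libraries. Vamp3, a vesicle fusion protein, fell by 0.25 (adjusted p = 0.0169), and Itgb5, an integrin subunit, by 0.30 (adjusted p = 0.0307). The caveolar coat genes Ptrf (cavin 1) and Prkcdbp (cavin 3) fell by 0.37 and 0.19 (adjusted p = 0.0393 and adjusted p = 0.0415). By library total, Vamp3, Itgb5, Ptrf and Prkcdbp did not pass (adjusted p = 0.485, 0.240, 0.244 and 0.614). Itgb5 was lost without knockout replicates 4 or 19 or control replicate 14 (adjusted p = 0.0506 to adjusted p = 0.0755), and Ptrf without any 1 library other than knockout replicate 4 or control replicate 13 (adjusted p = 0.0767 to adjusted p = 0.1002). Prkcdbp was lost without any 1 library other than control replicate 12 (adjusted p = 0.0673 to adjusted p = 0.0912), with the CPM filter (adjusted p = 0.0518) and with limma voom (adjusted p = 0.168). Cav1, caveolin 1, averaged 100.9 ± 7.54 RPKM in knockout and 93.4 ± 5.79 RPKM in control libraries and did not pass (adjusted p = 0.32), but scaling by library total gave a rise (0.29, limma, adjusted p = 0.0356). The balance of this list turned with scaling, as did that of all genes. By library total the list had 9 rises and 2 falls (31.9% and 7.17% of all genes). The listed-gene sum gave 0 and 7 (12.4% and 30.2%). The 3 rises were Pacsin2 (0.33), Cav2 (0.31) and Ehd1 (0.23). Cav2 and Ehd1 were lost without 5 and 7 of the 8 single libraries (adjusted p = 0.0664 to adjusted p = 0.0824 and adjusted p = 0.0510 to adjusted p = 0.117). None of the 3 passed with the listed-gene sum (adjusted p = 0.114, 0.238 and 0.375).

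Of 11 genes of endothelial fatty acid transport signalling, 4 fell and 1 rose (median -0.23), against 15.9% and 19.4% of all genes tested. Vegfb, a growth factor known for its role in endothelial fatty acid transport in mouse, averaged 5.02 ± 0.726 RPKM in knockout and 12.1 ± 0.482 RPKM in control libraries (SD, n = 4 each; log2 fold change -1.13; limma, adjusted p = 1.29e-05), and every knockout library lay below every control library. Its coreceptor Nrp1 averaged 15.1 ± 0.593 RPKM in knockout and 20.9 ± 1.88 RPKM in control libraries (-0.44; limma, adjusted p = 0.00141), and Nrp2, a related neuropilin, 3.06 ± 0.453 RPKM in knockout and 6.11 ± 1.03 RPKM in control libraries (-0.81; limma, adjusted p = 0.000436). These 3 fell in all 15 other settings. Tcf15, a partner of Meox2 in endothelial cells, fell by 0.44 on the log2 scale (adjusted p = 0.0197) but not without knockout replicate 4 or control replicates 12 or 14 (adjusted p = 0.0524 to adjusted p = 0.0555) or with the library total alone (adjusted p = 0.0720). Notch1 rose by 0.47 (limma, adjusted p = 0.00376). Flt1, the receptor of Vegfb, was at -0.23 and did not pass (adjusted p = 0.0962); it passed without control replicate 14 (-0.33, limma, adjusted p = 0.0160) and with the listed-gene sum (-0.37, limma, adjusted p = 0.0185).

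The last list held transcription factors and corepressors known to act on these genes, and Hilpda, which is neither and did not pass. Of its 17 tested genes, 4 rose and 2 fell (median 0.06). The shares over all genes tested were 19.4% and 15.9%. Rxra, the partner of PPARs on DNA, averaged 5.69 ± 0.832 RPKM in knockout and 2.97 ± 0.337 RPKM in control libraries (SD, n = 4 each; log2 fold change 0.75; limma, adjusted p = 0.000303). Ncor1, the corepressor that holds HDAC3, averaged 12.8 ± 0.793 RPKM in knockout and 7.72 ± 0.757 RPKM in control libraries (0.66; limma, adjusted p = 0.000156). Klf15, a Krüppel-like factor, rose by 0.76, and Epas1, a hypoxia-inducible factor, by 0.35, though not with the listed-gene sum (0.19, limma, adjusted p = 0.0744). Pparg stood at 35.9 to 53.9 in knockout and 47.1 to 50.4 in control libraries, in RPKM, and did not pass (limma, adjusted p = 0.399). Ppara fell by 0.33 on the log2 scale (adjusted p = 0.0415), a call lost without knockout replicates 4 or 20 or control replicates 12 or 13 (adjusted p = 0.0866 to adjusted p = 0.101) and with the library total alone (adjusted p = 0.363). Ebf2, a factor of brown adipocyte identity, fell by 0.37 (adjusted p = 0.00855), but not with the library total alone (adjusted p = 0.0675). By library total the list had 8 rises and 0 falls (31.9% and 7.17% of all genes). The listed-gene sum gave 3 and 5 (12.4% and 30.2%).

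**Figure D4:**
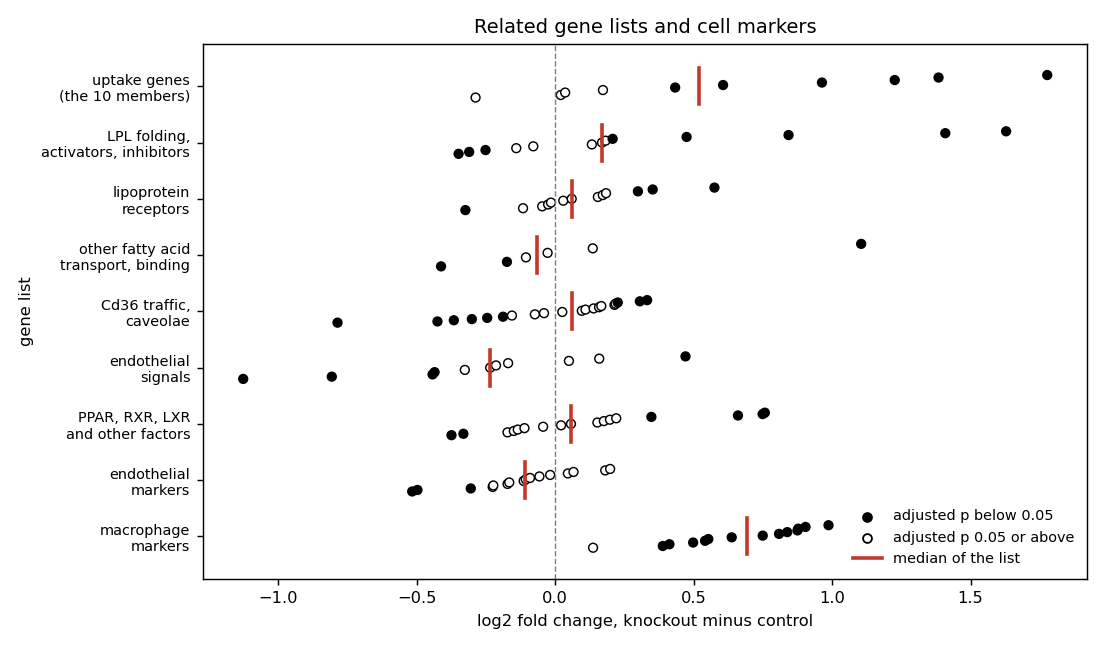
Log2 fold change, knockout minus control, of each tested gene in the 10 uptake genes, 6 related lists and 2 marker lists; filled points passed an adjusted p of 0.05, and the red bar is the list's median. The medians are 0.52 for the uptake genes, -0.23 for endothelial signals and 0.69 for macrophage markers.

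**Figure D5:**
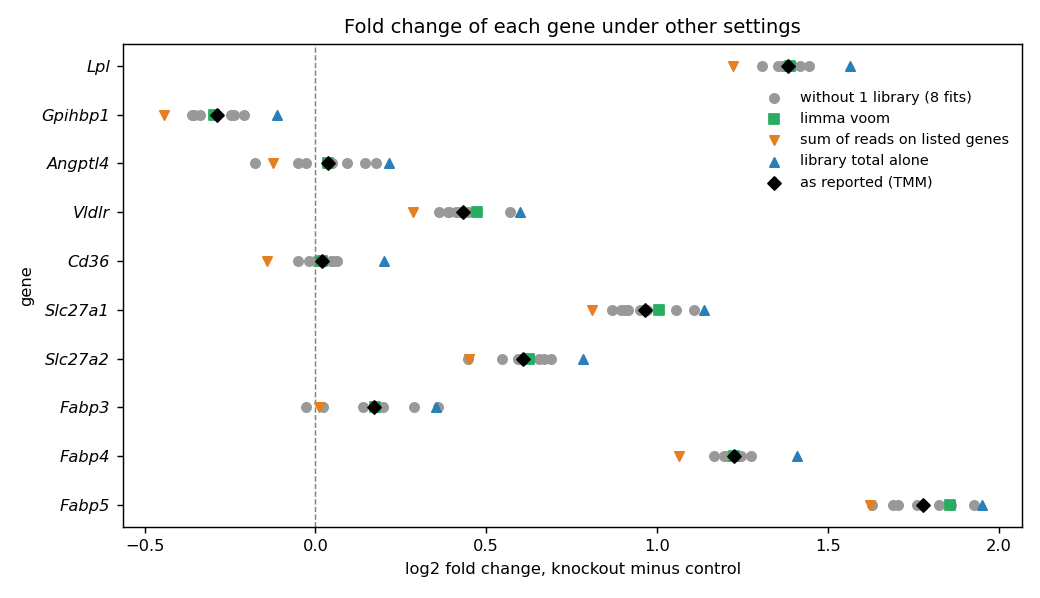
Log2 fold change of each gene, knockout minus control, as reported (diamond), with other library scalings (triangles), with limma voom (square) and without each single library (grey). Lpl, Fabp4, Fabp5, Slc27a1, Slc27a2 and Vldlr stay above 0 and Gpihbp1 below 0 in all of them, while Angptl4, Cd36 and Fabp3 fall on both sides.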

How the data were processed

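RNA-seq of 8 libraries of brown fat came as 1 table. The tools that the submitters' processing notes name for the authors' work are TopHat2, featureCounts and edgeR, and the build is mm9. Versions, annotation, strand setting and filter were not given in the sources used here, so overlapping or antisense genes are uncertain. Per the file headers, the authors deposited an RPKM value for each library. The authors also deposited columns of their own comparison: a log2 fold change, the mean log2 CPM, a p-value and its FDR. All 759 deposited log2 fold changes above 1 in size have the sign of knockout minus control RPKM. The RPKM values gave whole reads for 100% of values (tolerance 0.001 reads, 44 genes corrected for a shared factor).

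Tests used limma 3.58.1 in R 4.3.3, with a trend, two-sided, on log2(TMM-scaled RPKM + 1) of genes averaging 1 RPKM or more (TMM trims 0.3 and 0.05). This scale understates changes of low genes. Alternatives were RLE factors, the library total, the listed-gene sum, no filter, a filter of CPM over 1 in 4 or more libraries, limma voom on recovered reads (1772 higher, 1455 lower), a pseudocount of 0.1, a log2 fold change of at least 1, and leaving out each library. Named genes are the 10 members, Hdac3, Ucp1, Adipoq, Pecam1, Cdh5 and Emr1, up to 5 genes per related list by adjusted p, genes behind small counts, and the 5 closest to Lpl. Members and lists were chosen with earlier results of these data known. Of 126 related genes looked for, 86 were listed and 80 tested; the rest were not analysed here. Cav1, Flt1, Pparg and the adipocyte, brown adipocyte and endothelial markers beyond Adipoq, Ucp1, Pecam1 and Cdh5 were named after their values were seen where that rule does not reach them. Steps were tested on simulated data. Figures used matplotlib 3.10.9.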

Additional observations from a re-analysis of the deposited data

Results flagged for a closer look

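Of 168 groups of 4 libraries, 9 had a single library set apart from the rest, and chance alone would mark about 8.4 (1 in 20). None was a member or a ratio of members. In knockout libraries, Hspg2 had 8.46 RPKM in replicate 4, against 6.77 to 6.97 in the rest. Nrp2 had 2.38 RPKM in knockout replicate 19, against 3.24 to 3.32, and Epas1 had 21.1 RPKM in knockout replicate 20, against 23.9 to 24.4. In control libraries, Pcsk6 had 5.92 RPKM in replicate 13, against 4.89 to 4.99, and Cav2 had 21.5 RPKM in the same library, against 19.4 to 19.6. Mfge8 had 22.4 RPKM in control replicate 12, against 18.6 to 19.2, and Itgb5 had 10.4 RPKM in control replicate 14, against 8.61 to 8.70. For Elovl3, knockout replicate 19 had 11.03 RPKM (2.55 to 2.78 in its group otherwise), and control replicate 14 had 0.0347 RPKM, with 0 in the rest of the controls. Where the rest are all at 0, any value above 0 is set apart. That control flag, counted among the 9, was thus bound to be raised.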

How the results depend on the processing

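Under 15 other settings each, Lpl, Fabp4, Fabp5, Slc27a1, Slc27a2 and Hdac3 kept their direction and their call. Vldlr kept its direction, with 0.29 under the listed-gene sum, where it did not pass, and 0.36 to 0.57 without single libraries. Gpihbp1 passed with the listed-gene sum (-0.44) and limma voom (-0.30), and lay between -0.36 and -0.21 without single libraries. The sign of members that did not pass turned with the listed-gene sum for Angptl4 (-0.12) and Cd36 (-0.14). Without single libraries, Angptl4 lay between -0.18 and 0.18, Cd36 between -0.050 and 0.062 and Fabp3 between -0.029 and 0.36. Reversed values without a library were -0.052, -0.029 and -0.18 for Angptl4, -0.050, -0.0018 and -0.020 for Cd36 and -0.029 for Fabp3. Other genes that did not pass and changed sign were Acbd5 (0.049), Pecam1 (0.0044) and Pparg (0.043) when scaled by library total and Cav1 (-0.051) with the listed-gene sum. The cause was not tested.

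Members called higher numbered 3 with a log2 fold change of at least 1, and 5 to 6 without single libraries. Members called lower numbered 1 with the listed-gene sum and with limma voom, and 0 to 1 without single libraries. Of 80 related genes tested, 17 were higher and 18 lower as reported, against 19.4% and 15.9% of all genes. Scaled by library total, 32 were higher and 5 lower (31.9% and 7.17% of all genes). The listed-gene sum gave 10 higher and 26 lower (12.4% and 30.2%). All genes called numbered 2796 higher and 628 lower when scaled by library total, while the listed-gene sum gave 1087 higher and 2651 lower. The 12 ratios moved by less than the SD between libraries when any single library was left out. Dropping 1 of 4 values is bound to move a mean by less than that, so this says nothing of their stability. Of the 5 genes closest to Lpl, 4 were shared when scaled by library total. Allowing 1 mismatch in DR1 found it in 0 of the 8 member promoters and in 0.554% of all promoters. With so low a share, 8 promoters are too few to tell. No paired analysis was possible because the genotypes share no replicate numbers. Depth limits Fabp5 most, with 149 reads in its lowest library.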
